A study of Homo sapiens with 12 samples.

Results

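The 54 genes described here encode collagens, laminins and other glycoproteins of the extracellular matrix, with the proteoglycans that bind them and the enzymes that hydroxylate or cross-link collagen. They were chosen by symbol: every gene of a list written for this work was matched to its Ensembl identifier, and all 54 matched exactly 1 of the 62754 rows of the count table. RNA was measured in PC9, a human lung adenocarcinoma line that depends on a mutant EGFR, and the cells came from a subclonal line, so all groups descend from 1 clone. Polyadenylated RNA was sequenced in 12 libraries, 3 replicate cultures in each of 4 groups.

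Untreated WT cells carried wild-type TDP1 and received no drug. Drug-tolerant cells (DTC) were the same TDP1 WT cells after 7 days in 1 µM erlotinib, an inhibitor of the EGFR kinase, and drug-tolerant expanded cells (DTEC) were TDP1 WT cells after 28 days in 1 µM erlotinib. The KO group was the TDP1 knockout line KO2, without drug. TDP1 encodes a phosphodiesterase that removes trapped topoisomerase I from DNA. KO2 is a single knockout line, and how it was made is not given in the sources used here. No group held KO cells with drug. Cultures of a group were split from a common flask and then grown independently, so the p-values measure the spread between such cultures only.

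The extracellular matrix is laid down by the cells that sit in it. Epithelial cells rest on a basement membrane, in which networks of collagen IV and laminin trimers are tied together by nidogens and by the proteoglycans perlecan and agrin. Fibronectin, vitronectin, thrombospondins and tenascin are adhesive or regulatory glycoproteins that integrins and syndecans read at the cell surface, while fibrillar collagens and fibrillins are mostly made by connective tissue cells. Collagen IV and laminins work as trimers of different chains, so the level of 1 chain alone does not give the amount of a trimer.

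The genes of the collagen IV chains lie in 3 head-to-head pairs, in which the start sites face away from each other. In the RefSeq table for GRCh38.p14, the starts of COL4A1 and COL4A2 on chromosome 13 lay 126 bases apart, those of COL4A4 and COL4A3 on chromosome 2 lay 418 bases apart, and those of COL4A6 and COL4A5 on chromosome X lay 379 bases apart. The upstream sequences of COL4A5 and COL4A6 are shown because the RNA of these neighbours moved together at 7 days and apart at 28 days, and that of FN1 because its RNA rose most in counts. Capitals mark the CCAAT box (CCAAT or ATTGG), the GC box (GGGCGG or CCGCCC) and the cAMP response element (TGACGTCA), searched on either strand. Each run is read 5′ to 3′ on the strand of its gene and ends where the RefSeq start or the earliest GENCODE 29 exon base was reached, at chrX:108439588-108439837 (+ strand), chrX:108439498-108439708 (- strand) and chr2:215436173-215436318 (- strand) in that order.
COL4A5: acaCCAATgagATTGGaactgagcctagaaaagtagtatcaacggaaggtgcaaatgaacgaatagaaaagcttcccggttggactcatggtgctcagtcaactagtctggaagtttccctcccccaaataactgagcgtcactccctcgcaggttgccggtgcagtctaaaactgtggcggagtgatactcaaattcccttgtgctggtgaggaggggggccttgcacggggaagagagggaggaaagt
COL4A6: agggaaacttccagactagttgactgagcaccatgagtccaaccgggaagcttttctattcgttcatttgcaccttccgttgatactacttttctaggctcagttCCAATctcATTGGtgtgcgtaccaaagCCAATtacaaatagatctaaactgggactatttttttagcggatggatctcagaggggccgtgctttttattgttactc
FN1: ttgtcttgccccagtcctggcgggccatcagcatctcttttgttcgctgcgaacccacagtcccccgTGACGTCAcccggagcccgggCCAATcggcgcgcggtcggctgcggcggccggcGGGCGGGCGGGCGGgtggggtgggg
The COL4A5 and COL4A6 windows shared 121 bases read from opposite strands, and the 2 CCAAT boxes of the COL4A5 window lay in them. The COL4A6 run held 3 CCAAT boxes, and neither run held a GC box. COL4A6 has another RefSeq start, further from COL4A5, at chrX:108438422, whose window held 0 CCAAT boxes and 1 GC box. The distance and run given above are for the start nearer to COL4A5, and which start the RNA came from was not tested. The FN1 run held 1 cAMP response element, 1 CCAAT box and 3 GC boxes that overlap one another.

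RefSeq upstream windows of 250 bases were found for 42 of the 54 genes, in 49 windows. A GC box was present in 65.3% of these windows and in 42.6% of all 35116 windows of the table. For the CCAAT box the shares were 30.6% and 32.01%, and for the AP-1 site (TGAGTCA or TGACTCA) 6.12% and 4.20%. FN1 was the only gene of the set with a cAMP response element in its window, which 1.65% of all windows held. A match is a run of letters and was not tested for binding.

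Levels are given as CPM, estimated counts made comparable between libraries of different size with the trimmed mean of M values (TMM). Libraries held 25572691 to 38373679 estimated counts. A group in which none of the libraries passed 3 counts of a gene was taken to be at the floor for it, which was 0.0824 to 0.115 CPM. TDP1 itself stood at 28.1, 25.1 and 25.8 CPM in untreated WT cells, 15.7, 12.7 and 13.5 in DTC, 28.4, 25.4 and 26.1 in DTEC and 10.1, 11.3 and 11 in KO, so KO was below all other groups and DTC was also below untreated WT. All 6 epithelial markers were expressed in every group, with a summed level of 10794 to 11395 CPM in untreated WT and 6293 to 7277 in DTC. Of 7 fibroblast markers, THY1, DPT and TCF21 were at the floor in DTC, and the summed level was 0.519 to 0.809 CPM in untreated WT and 19.8 to 23.3 in DTC, and at most 0.877 CPM in a DTEC or KO library. Most of that sum was MFAP5, a microfibril glycoprotein that is also in a matrix list below. Of the markers that passed the filter, 4 of 4 for smooth muscle and pericytes, 3 of 3 for leukocytes and 1 of 3 for endothelium were called higher in DTC, and 1 of the 3 for endothelium and 4 of the 6 epithelial ones lower. Of all tested genes 34.0% were called higher and 33.3% lower. The 5 smooth muscle markers summed to between 1.69 and 2.12 CPM in untreated WT and between 8.48 and 9.59 in DTC. For the 6 leukocyte markers the sums were 27.2 to 34.3 and 45.9 to 65.5 CPM, and for the 6 endothelial ones 58.5 to 61.4 and 42.3 to 50.2 CPM. Few genes carried these sums in DTC: CD68, at 36.4 to 53.4 CPM, for leukocytes, where PTPRC was at most 0.147. For endothelium they were PECAM1 and CDH5, and for smooth muscle CNN1, at 4.06 to 6.27 CPM, was the largest. ERG and CD3E were at the floor in DTC. Mitochondrial genes took 4.43% to 5.41% of the counts in DTC and 1.82% to 2.78% in the other groups. The part of these shifts in the results below was not tested. In bulk RNA, a gene at a lower level in each cell and a gene expressed by fewer of the cells cannot be told apart.

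Of the 54 genes, 46 passed the count filter and were tested. The fit compared group means with edgeR's quasi-likelihood F test, and a gene was called at a Benjamini-Hochberg adjusted p under 0.05 over all 17115 tested genes. LAMA1, POSTN and FBN2 passed the filter only through their level in DTC, so the filter favoured a higher DTC value for them. POSTN and FBN2 are among the genes counted below as higher in DTC and as lower in DTEC than in DTC. LAMA1 was not called, and all 3 are in the medians over the tested genes. In DTC, 25 of the 46 were called higher than in untreated WT and 8 lower, against 34.0% of all tested genes called higher and 33.3% called lower. In DTEC, 20 were called higher than in untreated WT and 12 lower, against 26.0% and 26.3%. Between the treated groups, 6 were called higher in DTEC than in DTC and 24 lower, against 28.8% and 26.6%. In KO, 6 were called higher than in untreated WT and 0 lower, against 2.76% and 1.55%. At an unadjusted p under 0.05, KO had 13 of the 46 higher and 4 lower, against 9.19% and 7.44% of all tested genes.

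The median log2 fold change over the 46 tested genes was 1.11 in DTC, 0.31 in DTEC and 0.24 in KO, where all tested genes had medians of 0.055, 0.018 and -0.012. DTEC differed from DTC by a median of -1.16 over the set and -0.0084 over all tested genes. These 3 comparisons with untreated WT use the same untreated libraries, so their values are set side by side and not treated as separate evidence. Scaling by total counts or by the upper quartile raised the median of all genes in DTC by 0.35 and 0.29, and those splits of called genes were 33 higher to 7 lower and 32 to 8. Of all tested genes 68.4% and 68.0% were called under these scalings, against 67.3% with TMM. Only called changes are described as rises or falls below.

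**Figure D1:**
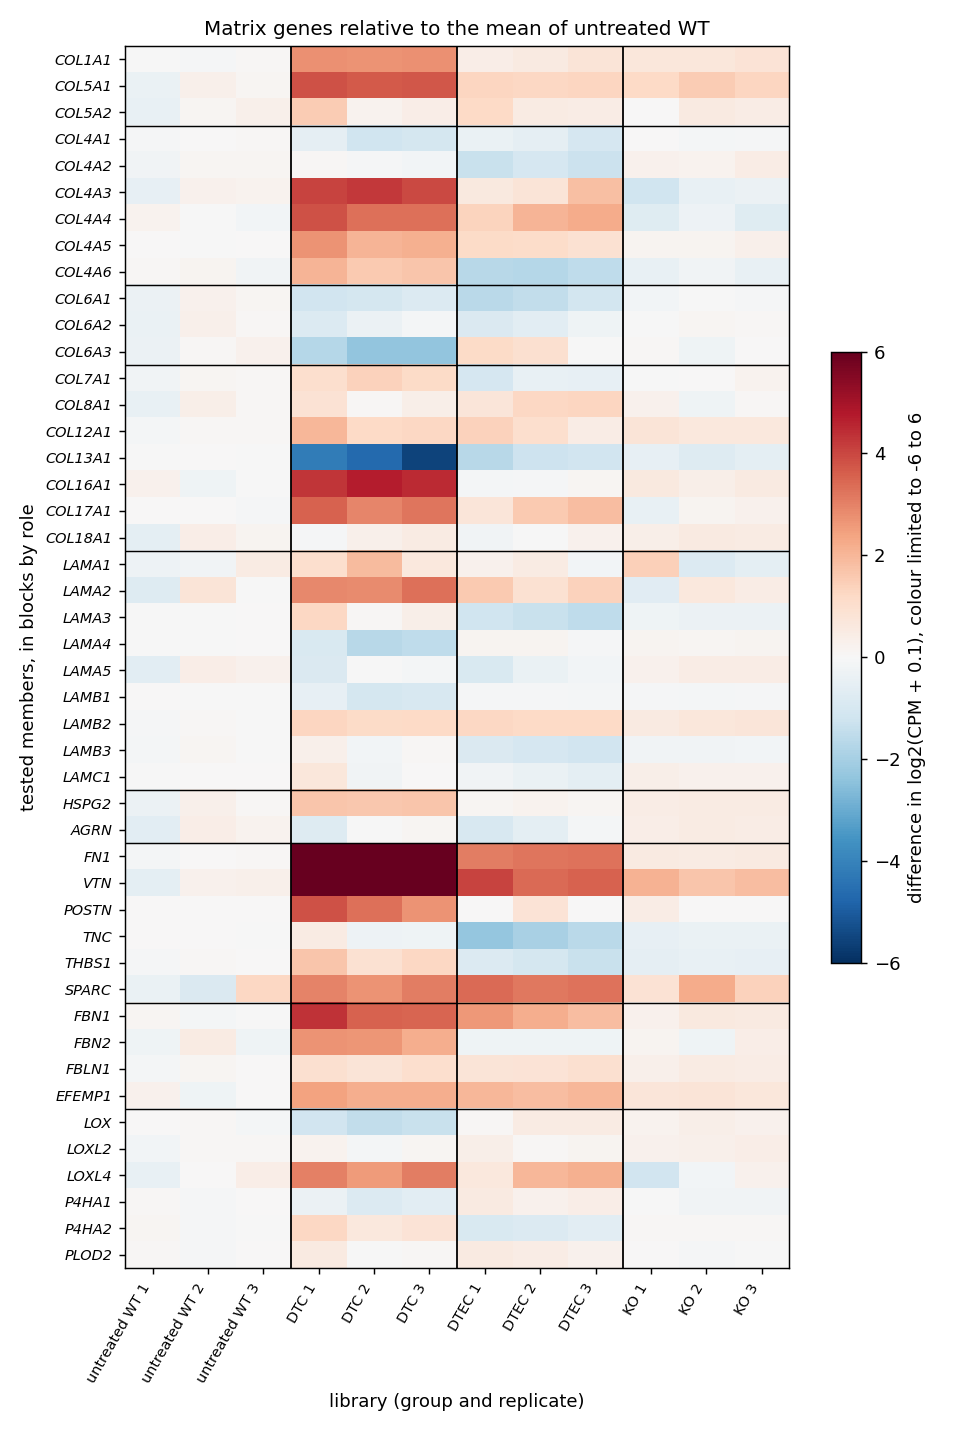
Difference of each library from the mean of the 3 untreated WT libraries, on the log2(CPM + 0.1) scale, for the 46 tested genes (rows, in blocks by role) and the 12 libraries (columns, by group and replicate); colours are limited at -6 and 6. The DTC columns hold the strongest colours, with FN1 and VTN beyond the upper limit and COL13A1 the bluest row, and in many rows DTEC lies between untreated WT and DTC.

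The adhesive glycoproteins held the largest rises. FN1 encodes fibronectin, the adhesive protein that integrins assemble into fibrils, and lies at chr2:215360440-215436172 (GENCODE 29, GRCh38). Its level was 88.6, 97.9 and 99.4 CPM in the 3 untreated WT libraries, 13169.5, 6343 and 7091 in DTC, 796, 869 and 921 in DTEC and 140.0, 132 and 137 in KO. DTC stood far above every other library, DTEC lay between DTC and untreated WT, and no 2 of the 4 groups overlapped. The log2 fold change was 6.54 (SE 0.26, adjusted p = 2.41e-10) in DTC and 3.18 (SE 0.22, adjusted p = 1.17e-07) in DTEC, and DTEC was -3.36 relative to DTC. In KO the value was 0.52 (SE 0.21, adjusted p = 0.212), which did not pass the threshold.

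FN1 took 0.729% to 1.51% of all counts in DTC, and ranked 1, 5 and 4 among all genes in DTC replicates 1 to 3. In untreated WT its rank was between 2535 and 2836. The 54 genes together took 0.354% to 0.453% of counts in untreated WT cells, 2.23%, 1.29% and 1.46% in DTC replicates 1 to 3, and between 0.441% and 0.470% in the DTEC and KO libraries. Without FN1 the share was 0.403% ± 0.0512 (SD, n = 3) in untreated WT cells, 0.638% ± 0.0784 in DTC, 0.365% ± 0.0048 in DTEC and 0.453% ± 0.00547 in KO. FN1 therefore made up 56.4% to 67.8% of the counts of the set in DTC. Of the 12 deposited FN1 values 5 were whole numbers, so a part of its reads was shared out between features.

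VTN encodes vitronectin, an adhesive protein of serum and matrix, and lies at chr17:28367276-28373091. Its level was 0.0299, 0.135 and 0.144 CPM in untreated WT cells, 52.9, 46.1 and 63.7 in DTC, 3.2, 1.99 and 2.17 in DTEC and 0.737, 0.518 and 0.608 in KO. The 4 groups did not overlap, and untreated WT held only 1, 4 and 5 counts. The log2 fold change was 9.0 (SE 0.30, adjusted p = 3.26e-11) in DTC, 4.54 (SE 0.36, adjusted p = 2.12e-07) in DTEC and 2.55 (SE 0.45, adjusted p = 0.00507) in KO. VTN thus had the largest fold change of the tested members with an untreated level above the floor, though its DTC level per kilobase of exon, 22.3 CPM, was far below the 512 CPM of FN1. An exon of VTN overlaps another annotated gene on the same strand, ENSG00000273171.

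THBS1 encodes thrombospondin 1, a matricellular glycoprotein that binds CD36 and can activate latent TGF-beta. THBS1 stood at 262, 292 and 286 CPM in untreated WT cells, 894, 529.7 and 656 in DTC, 161, 136 and 112 in DTEC and 195, 203 and 201 in KO. All DTC libraries were above, and all DTEC libraries below, those of untreated WT. Its log2 fold change was 1.31 (SE 0.17, adjusted p = 7.96e-06) in DTC and -1.04 (SE 0.17, adjusted p = 0.000128) in DTEC. In KO it was -0.49 (SE 0.16, adjusted p = 0.127), with no overlap between the libraries, and was not called (unadjusted p = 0.0102).

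TNC, tenascin C, is a large glycoprotein of remodelling tissue. Its levels were 50, 49.4 and 48.2 CPM in untreated WT cells, 70.4, 39.7 and 40.9 in DTC, 9.68, 12.9 and 15.8 in DTEC and 35.3, 37.2 and 37.4 in KO. DTC replicate 1 lay above untreated WT and DTC replicates 2 and 3 below it, so DTC straddled untreated WT, while DTEC was the lowest group. TNC fell in DTEC, with a log2 fold change of -1.94 on the log2 scale (SE 0.21, adjusted p = 5.26e-06), and its DTC value of 0.03 was not called (adjusted p = 0.899).

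SPARC encodes osteonectin, a collagen-binding matricellular protein, and was low throughout, at 0.0337 to 0.49 CPM in untreated WT cells, from 1.5 to 1.99 in DTC, from 2.14 to 2.5 in DTEC and from 0.351 to 1.04 in KO. It rose in DTC, by 3.05 (SE 0.57, adjusted p = 0.000284) on the log2 scale, and in DTEC, by 3.42 (SE 0.57, adjusted p = 0.000176). These sizes rest on untreated WT replicate 3, the highest of its group: without it they were 4.75 and 5.11. SPARC was the glycoprotein of this group whose DTEC level was not called different from DTC (0.37, adjusted p = 0.513). POSTN, periostin, had 0 counts in all untreated WT libraries and 0.557 to 1.32 CPM in DTC, at least 9.09-fold higher against the floor of 3 counts per library. In DTEC it was at the floor again, at least 8.02-fold lower than in DTC. THBS2 had 0 counts in all 12 libraries.

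**Figure D2:**
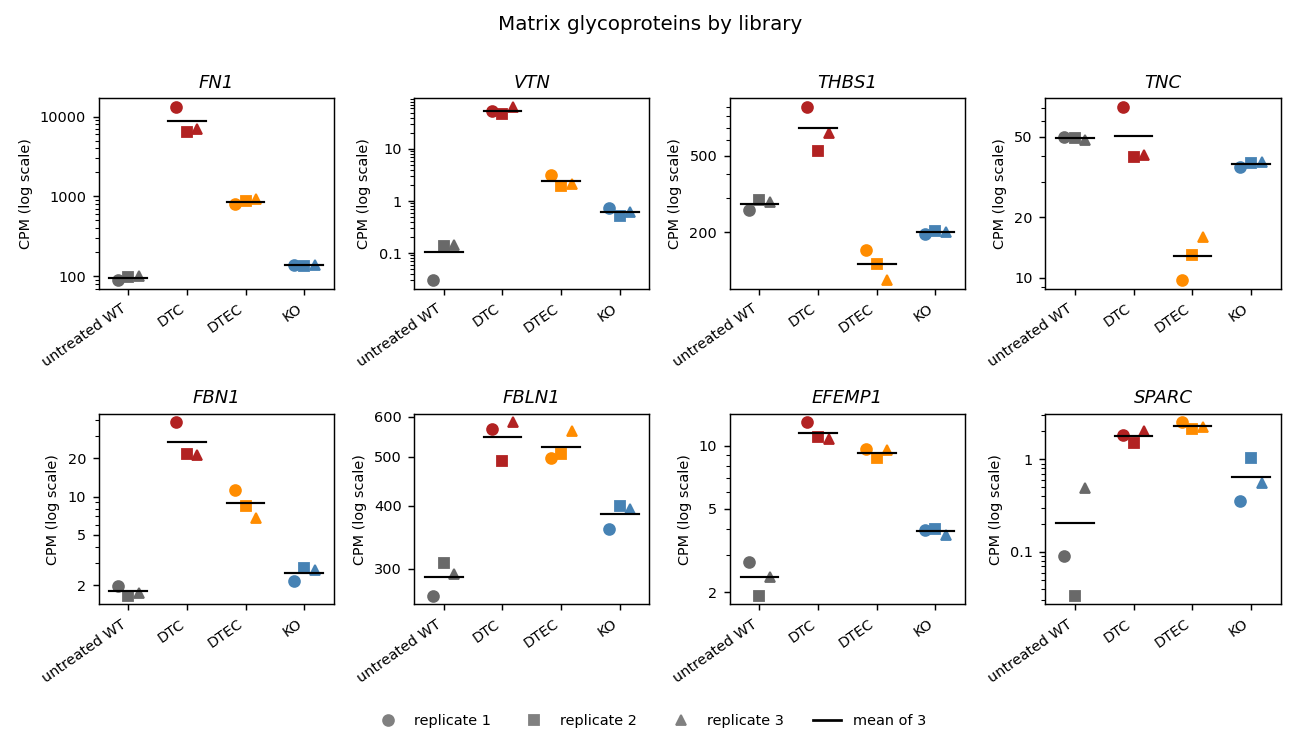
CPM on a log axis in each of the 12 libraries for 8 glycoprotein genes; the marker shape gives the replicate number and the bar the mean of 3 libraries. DTC is highest for FN1, VTN, THBS1 and FBN1, with replicate 1 above the other DTC libraries for FN1, THBS1, TNC and FBN1, while FBLN1, EFEMP1 and SPARC have DTEC levels close to those of DTC.

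Fibrillins and fibulins build the microfibrils that scaffold elastic fibres and hold latent TGF-beta. All 4 genes of this kind were called higher in DTC, among them FBN2, which passed the filter through DTC alone, and 3 were called higher in DTEC, where 34.0% and 26.0% of all genes were called higher in these groups. FBN1, fibrillin 1, stood at 1.97, 1.65 and 1.73 CPM in untreated WT cells, 38.4, 21.6 and 21.3 in DTC, 11.2, 8.44 and 6.79 in DTEC and 2.14, 2.75 and 2.63 in KO. DTC and DTEC lay wholly above untreated WT and did not overlap each other. The log2 fold change of FBN1 was 3.92 (SE 0.26, adjusted p = 1.61e-08) in DTC and 2.3 (SE 0.26, adjusted p = 6.43e-06) in DTEC.

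EFEMP1, the fibulin also called fibulin 3, was at 2.78, 1.92 and 2.36 CPM in untreated WT cells, 12.9, 11 and 10.8 in DTC, 9.62, 8.71 and 9.51 in DTEC and 3.97, 4.01 and 3.76 in KO. Untreated WT was the lowest group and overlapped none of the others. EFEMP1 rose by 2.29 (SE 0.15, adjusted p = 1.12e-08) in DTC, by 1.97 (SE 0.15, adjusted p = 1.70e-07) in DTEC and by 0.73 (SE 0.15, adjusted p = 0.0156) in KO. FBLN1, fibulin 1, had 289 ± 21.7 CPM (SD, n = 3) in untreated WT cells, 548 ± 49.9 in DTC, 522 ± 36.1 in DTEC and 384 ± 21.5 in KO. It rose by 0.93 in DTC, 0.86 in DTEC and 0.41 in KO on the log2 scale (adjusted p = 2.05e-06, 1.02e-05 and 0.0352). The KO calls of both fibulins were lost when single libraries were left out. Per kilobase of exon, FBLN1 was the most abundant gene of the set in DTEC, at 71.7 CPM, followed by FN1 at 49.8. FBN2 was at or near the floor outside DTC, where it had 0.44 to 0.676 CPM, at least 5.81-fold above untreated WT and at least 5.13-fold above DTEC.

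Fibrillar collagens give connective tissue its tensile strength. COL1A1 encodes the alpha 1 chain of collagen I, and its levels were 8.27, 7.79 and 8.83 CPM in untreated WT cells, 56, 54.2 and 56.8 in DTC, 10.9, 12.2 and 14 in DTEC and 13.1, 13.4 and 14.8 in KO. The untreated WT libraries were the lowest, and the DTC libraries had a mean of 55.7 ± 1.32 CPM (SD, n = 3) and lay apart from all others. Its log2 fold change was 2.74 (SE 0.11, adjusted p = 1.93e-10) in DTC, 0.58 (SE 0.11, adjusted p = 0.000638) in DTEC and 0.73 (SE 0.11, adjusted p = 0.00194) in KO. COL1A2, the partner chain in the common form of collagen I, was at the floor in all 12 libraries, with 0 or 1 counts in each, and so was COL3A1.

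COL5A1 encodes a chain of collagen V, which starts the assembly of collagen I fibrils. It stood at 5.97, 9.61 and 8.48 CPM in untreated WT cells, 114, 103 and 106 in DTC, 19.1, 18.8 and 19.2 in DTEC and 18, 22.5 and 19.4 in KO. DTC was highest, DTEC and KO lay at similar heights between DTC and untreated WT, and no DTC, DTEC or KO library overlapped untreated WT. COL5A1 rose by 3.75 (SE 0.15, adjusted p = 1.73e-10) in DTC, by 1.25 (SE 0.15, adjusted p = 7.82e-06) in DTEC and by 1.32 (SE 0.15, adjusted p = 0.000162) in KO. COL5A2, its usual partner chain, had 0.149 to 0.879 CPM over the 12 libraries and was called in no comparison.

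Collagen IV is the network collagen of basement membranes, built as trimers of alpha 1 and 2, of alpha 3, 4 and 5, or of alpha 5 and 6. In DTC, COL4A3, COL4A4, COL4A5 and COL4A6 rose while COL4A1 fell and COL4A2 was not called. In DTEC, COL4A3 to COL4A5 were still above untreated WT, and COL4A1, COL4A2 and COL4A6 were below it. No collagen IV gene was called in KO.

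COL4A5 was the most abundant of the 6 in counts, with 29.6, 28.3 and 29.1 CPM in untreated WT cells, 189, 119 and 129 in DTC, 65.4, 62.3 and 54.1 in DTEC and 32.4, 32.6 and 35.2 in KO. DTC replicate 1 was the highest library, and DTC, DTEC and untreated WT did not overlap. The log2 fold change was 2.33 (SE 0.15, adjusted p = 9.69e-09) in DTC and 1.06 (SE 0.15, adjusted p = 3.71e-05) in DTEC. COL4A6, its head-to-head neighbour, had 6.63, 7.08 and 5.57 CPM in untreated WT cells, 26.6, 19.2 and 20.6 in DTC, 1.92, 1.87 and 2.17 in DTEC and 4.6, 5.54 and 4.7 in KO. Here DTC was above untreated WT and DTEC below it. COL4A6 changed by 1.78 (SE 0.15, adjusted p = 1.24e-07) in DTC and by -1.69 (SE 0.17, adjusted p = 1.61e-06) in DTEC, and DTEC differed from DTC by -3.47 (SE 0.17, adjusted p = 1.41e-09). Per kilobase of exon the ratio of COL4A5 to COL4A6 was 3.57 ± 0.485 (SD, n = 3) in untreated WT cells, 5.11 ± 0.402 in DTC, 24.1 ± 3.97 in DTEC and 5.33 ± 0.651 in KO. The shared 121 bases shown above lie between the start of COL4A5 and the nearer start of COL4A6.

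COL4A3 and COL4A4 start from the second pair. COL4A4 was at 1.34, 1.15 and 1.01 CPM in untreated WT cells, 17.8, 12.3 and 12.4 in DTC, 3.11, 5.04 and 5.88 in DTEC and 0.667, 0.906 and 0.664 in KO. COL4A3 was lower, at 0.119, 0.27 and 0.26 in untreated WT cells, 5.07, 5.74 and 4.72 in DTC, 0.365, 0.42 and 0.989 in DTEC and 0.0351, 0.129 and 0.138 in KO. For both genes the order was DTC above DTEC above untreated WT, with no overlap between these groups. The log2 fold change in DTC was 4.56 (SE 0.42, adjusted p = 2.71e-07) for COL4A3 and 3.6 (SE 0.26, adjusted p = 2.13e-08) for COL4A4. In DTEC the rise was 2.0 (SE 0.25, adjusted p = 1.66e-05) for COL4A4 and 1.47 (SE 0.45, adjusted p = 0.014) for COL4A3, and the latter was lost without DTEC replicate 3, when it was 0.84 (adjusted p = 0.124), or without untreated WT replicate 1, when it was 1.2 (adjusted p = 0.0607). COL4A3 and MFF-DT have exons that overlap on opposite strands.

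COL4A1 and COL4A2, the chains of the most widespread collagen IV trimer, were the pair that did not rise. COL4A1 had 23.1 ± 1.17 CPM (SD, n = 3) in untreated WT cells, 12.2 ± 3.04 in DTC, 14.8 ± 3.14 in DTEC and 22.3 ± 1.11 in KO. It fell in DTC, with a log2 fold change of -0.93 (SE 0.17, adjusted p = 0.000262) and of -0.65 in DTEC (adjusted p = 0.0056). COL4A2 was at 2.48 to 3.2 CPM in untreated WT and 2.58 to 3.11 in DTC, which overlapped, and at 1.1 to 1.41 in DTEC, below both. Its log2 fold change was -0.06 in DTC (adjusted p = 0.783) and -1.29 (SE 0.20, adjusted p = 9.51e-05) in DTEC. Against COL4A1, COL4A5 per kilobase of exon was 1.56 ± 0.107 times as high in untreated WT cells, 14.9 ± 0.268 in DTC, 5.19 ± 0.674 in DTEC and 1.87 ± 0.132 in KO. The ratio was similar in the 3 DTC libraries, though each gene alone was higher in DTC replicate 1. Such a ratio depends on the exon lengths used and shows unequal change only.

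**Figure D3:**
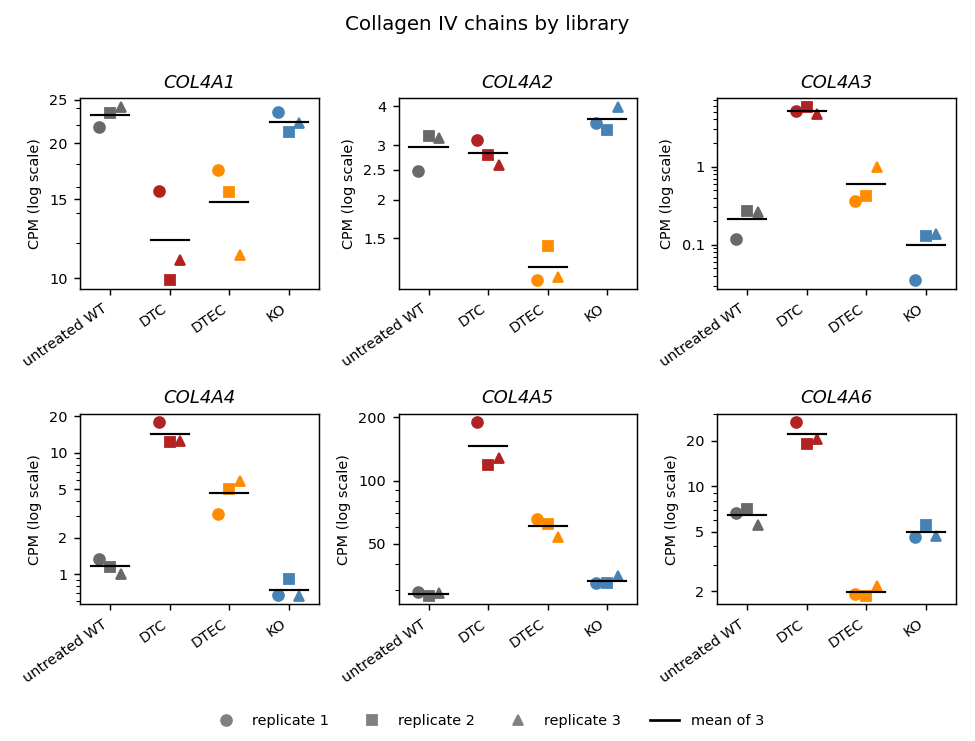
CPM on a log axis in each of the 12 libraries for the 6 collagen IV genes; the marker shape gives the replicate and the bar the mean of 3. COL4A3 to COL4A6 peak in DTC, COL4A6 falls below untreated WT in DTEC, COL4A1 is lower in DTC and DTEC, and COL4A2 is lower in DTEC alone.

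Collagen VI forms beaded filaments around cells. COL6A1 was the most abundant gene of the set per kilobase of exon in untreated WT cells, at 104 CPM. Its levels were 421, 651 and 592 CPM in untreated WT cells, 249, 262 and 307 in DTC, 179, 195 and 252 in DTEC and 493, 531 and 519.5 in KO. The treated libraries were all below the untreated ones, and DTC and DTEC overlapped. COL6A1 fell in DTC, with a log2 fold change of -1.02 (SE 0.16, adjusted p = 5.46e-05) and of -1.41 in DTEC (SE 0.16, adjusted p = 6.23e-06). COL6A2 changed by -0.43 in DTC (adjusted p = 0.0699) and -0.60 in DTEC (adjusted p = 0.0222), and its DTEC and untreated WT libraries overlapped. That DTEC call was lost under 7 alternatives, among them scaling by total counts or by the upper quartile. COL6A3, the long alpha 3 chain, was near 1 CPM in untreated WT (1.03), 0.157 in DTC and 1.81 in DTEC. It fell in DTC, with a log2 fold change of -2.71 (SE 0.44, adjusted p = 8.21e-05), and was higher in DTEC than in DTC by 3.51 (SE 0.43, adjusted p = 1.14e-05).

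Among the other collagens, COL16A1 had the sharpest peak at 7 days. COL16A1, a fibril-associated collagen, stood at 3.76, 2.6 and 3.11 CPM in untreated WT cells, 62.1, 83.6 and 72.2 in DTC, 2.89, 2.98 and 3.38 in DTEC and 4.74, 4.05 and 4.64 in KO. DTC was set apart from all other libraries, and DTEC overlapped untreated WT. COL16A1 rose by 4.52 (SE 0.16, adjusted p = 4.91e-11) in DTC, while in DTEC the value was -0.03 (SE 0.16, adjusted p = 0.874), with a 95% interval of -0.35 to 0.28. That interval uses a normal quantile of the SE, so it is narrower than the F test would give. An antisense gene, PEF1-AS1, overlaps its exons.

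COL13A1, a transmembrane collagen of cell adhesions, went the other way. It was at 36.6, 39 and 37.7 CPM in untreated WT cells, 1.99, 1.41 and 0.704 in DTC, 11.8, 15.8 and 16.7 in DTEC and 26.4, 22.1 and 24.8 in KO. The 4 groups did not overlap, with DTC lowest. COL13A1 had the largest fall of the set, -4.8 (SE 0.25, adjusted p = 1.48e-09) in DTC, and was still lower in DTEC, at -1.35 (SE 0.20, adjusted p = 6.76e-05). DTEC was above DTC by 3.45 (SE 0.24, adjusted p = 7.37e-08). Its KO value of -0.63 was not called (adjusted p = 0.0943).

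COL17A1 is the transmembrane collagen of hemidesmosomes, which anchor epithelial cells to laminin. It was at 3.49, 3.47 and 3.2 CPM in untreated WT cells, 40.8, 26.4 and 31.9 in DTC, 5.76, 10.4 and 12.7 in DTEC and 2.46, 3.75 and 4.12 in KO. DTC and DTEC lay above untreated WT without overlap, and KO overlapped untreated WT. COL17A1 rose by 3.28 (SE 0.27, adjusted p = 1.90e-07) in DTC and by 1.5 (SE 0.27, adjusted p = 0.000405) in DTEC. COL7A1, which forms the anchoring fibrils beneath the epithelial basement membrane, had 53, 67.1 and 65 CPM in untreated WT cells, 124, 162 and 136 in DTC, 30.3, 44.6 and 44.1 in DTEC and 59.95, 62.4 and 69.9 in KO. Every DTC library was above, and every DTEC library below, those of untreated WT. COL7A1 changed by 1.19 (SE 0.15, adjusted p = 8.03e-06) in DTC and by -0.64 (SE 0.15, adjusted p = 0.0029) in DTEC.

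COL12A1, a fibril-associated collagen, stood at 74.3, 85.9 and 85.9 CPM in untreated WT cells, 326, 189 and 196 in DTC, 212, 165 and 112 in DTEC and 140.1, 128 and 129 in KO. DTC replicate 1 was the highest library, and DTC and DTEC overlapped. It rose by 1.53 (SE 0.23, adjusted p = 5.26e-05) in DTC and 0.99 (SE 0.23, adjusted p = 0.00246) in DTEC, and its KO value of 0.69 was not called (adjusted p = 0.119). COL8A1, a short-chain network collagen, was at 1.4 to 2.5 CPM in untreated WT and 3.26 to 4.84 in DTEC, and was called in DTEC alone, at 1.1 (SE 0.27, adjusted p = 0.00349). Only 1 of the 12 deposited values of COL8A1 was whole, so its level is less certain. COL18A1, the basement membrane collagen from which endostatin is cut, had 79.5 CPM in untreated WT cells, 92.2 in DTC, 77.7 in DTEC and 106 in KO, and was called in no comparison.

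Laminins are trimers of an alpha, a beta and a gamma chain, and LAMA3 and LAMB3 encode chains of the laminin that epithelial hemidesmosomes bind. LAMA3 had 229, 229.6 and 233 CPM in untreated WT cells, 551, 239 and 296 in DTC, 102, 92.6 and 80.1 in DTEC and 191, 181 and 179.7 in KO. DTEC was the lowest group, and the DTC mean was raised by replicate 1. In DTC the log2 fold change was 0.65 (SE 0.23, adjusted p = 0.0208). It was 0.25 without DTC replicate 1 (adjusted p = 0.0373) and 0.66 when only the compared libraries were fitted (adjusted p = 0.0542). In DTEC, LAMA3 fell, with a log2 fold change of -1.33 (SE 0.23, adjusted p = 0.000317).

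LAMB3 was at 423, 492 and 449 CPM in untreated WT cells, 561, 411 and 480.2 in DTC, 252, 222 and 204 in DTEC and 392, 394 and 402 in KO. DTC overlapped untreated WT and DTEC lay below both. Its change was 0.09 in DTC (adjusted p = 0.521) and -1.01 (SE 0.12, adjusted p = 9.43e-06) in DTEC. Both chains were thus lower in DTEC than in untreated WT cells, while in DTC LAMA3 was higher and LAMB3 was not called.

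LAMA4, the alpha chain of laminins found around vessels and in mesenchyme, behaved in the opposite order. LAMA4 was at 286, 289 and 293 CPM in untreated WT cells, 155, 92.7 and 102 in DTC, 328, 321 and 275 in DTEC and 323, 314 and 321 in KO. The DTC libraries were the lowest, and DTEC overlapped untreated WT. LAMA4 fell in DTC, with a log2 fold change of -1.31 (SE 0.15, adjusted p = 3.45e-06) and in DTEC it was 0.09 (adjusted p = 0.641). Per kilobase of exon, LAMA3 was 0.628 ± 0.00287 times LAMA4 in untreated WT cells, 2.38 ± 0.391 in DTC, 0.234 ± 0.00969 in DTEC and 0.454 ± 0.0125 in KO. The ratio was above 1 in each DTC library and below 1 in every other library.

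LAMB1 and LAMB2 are the beta chains of most other laminins. LAMB2 had 36.9, 40.2 and 37.7 CPM in untreated WT cells, 94.6, 85.9 and 88.1 in DTC, 89.98, 86.6 and 87.7 in DTEC and 55.5, 61 and 62.8 in KO. DTC and DTEC overlapped, and KO lay between them and untreated WT. LAMB2 rose by 1.23 (SE 0.09, adjusted p = 2.65e-08) in DTC, 1.2 (SE 0.09, adjusted p = 1.24e-07) in DTEC and 0.64 (SE 0.09, adjusted p = 0.000905) in KO. LAMB1 had 358 ± 9.42 CPM (SD, n = 3) in untreated WT cells, 203 ± 43 in DTC, 336 ± 6.84 in DTEC and 335 ± 4.77 in KO, and fell in DTC, with a log2 fold change of -0.82 (SE 0.12, adjusted p = 3.46e-05). Per kilobase of exon, LAMB2 was 0.127 ± 0.00814 of LAMB1 in untreated WT cells, 0.535 ± 0.0784 in DTC, 0.311 ± 0.00715 in DTEC and 0.211 ± 0.0157 in KO.

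LAMC1, the common gamma chain, had 424 ± 8.11 CPM in untreated WT cells, 493 ± 157 in DTC, 324 ± 46 in DTEC and 523 ± 18.2 in KO. It was called only between the treated groups, lower in DTEC than in DTC, with a log2 difference of -0.61 (SE 0.17, adjusted p = 0.0082). DTC replicate 1 was the highest LAMC1 library, and without it the difference was -0.34 (adjusted p = 0.00933). LAMA5, the alpha chain of the main adult epithelial basement membrane laminin, ranged from 132 to 344 CPM over the 12 libraries and was called in no comparison. LAMA2, the alpha chain of muscle basement membrane, rose from 0.201 CPM in untreated WT to 2.14 in DTC and 0.575 in DTEC, by 3.42 (SE 0.52, adjusted p = 4.04e-05) and 1.54 (SE 0.54, adjusted p = 0.028). The DTEC call of LAMA2 was lost when replicate 1 or replicate 3 of either group was left out, and without untreated WT replicate 2 the changes were 4.17 and 2.28. LAMA1 was below 1 CPM in all 12 libraries and was called in no comparison.

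**Figure D4:**
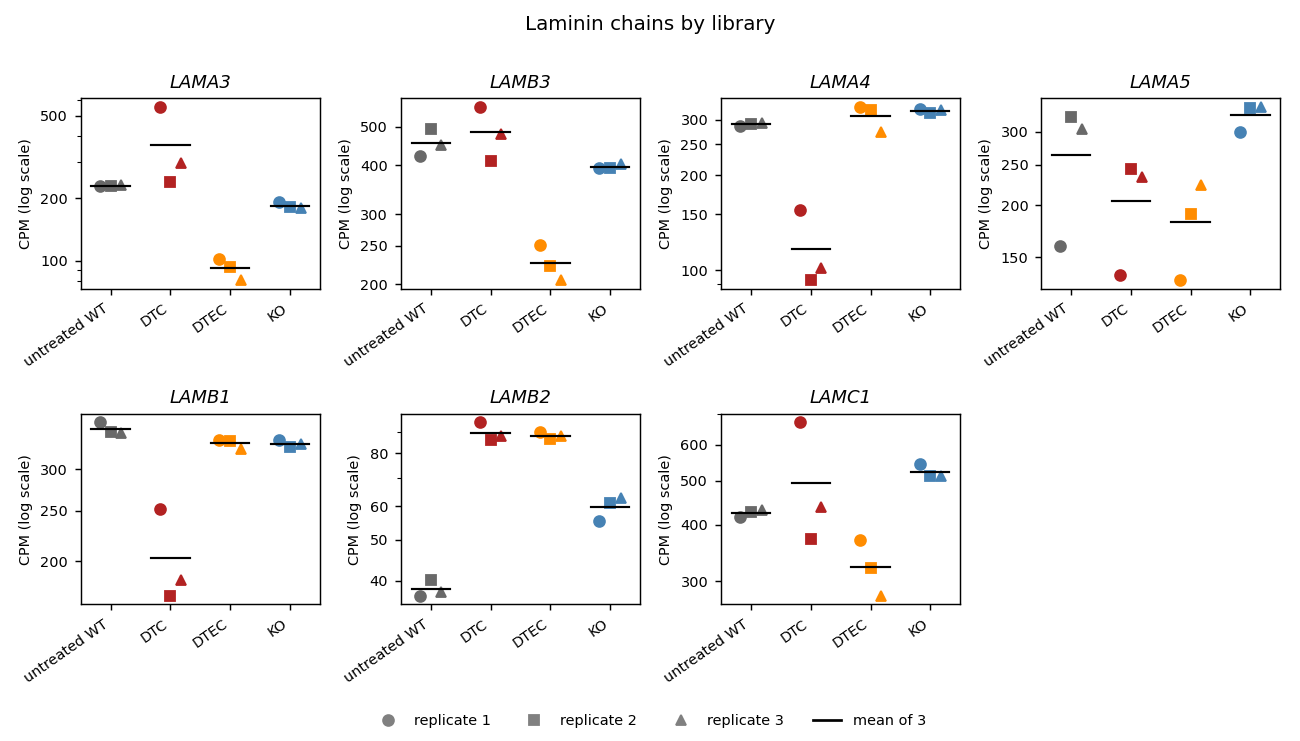
CPM on a log axis in each of the 12 libraries for 7 laminin genes of the set; the marker shape gives the replicate and the bar the mean of 3. LAMA3 and LAMB3 are lowest in DTEC, LAMA4 and LAMB1 are lowest in DTC, and LAMB2 is higher in both treated groups.

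HSPG2 encodes perlecan, the heparan sulfate proteoglycan of basement membranes. It stood at 60.7, 96.2 and 82.4 CPM in untreated WT cells, 250.2, 238 and 247 in DTC, 84.8, 91.8 and 85 in DTEC and 108, 109.5 and 110.0 in KO. DTC was apart from all other libraries, and DTEC overlapped untreated WT. HSPG2 rose by 1.62 (SE 0.13, adjusted p = 8.74e-08) in DTC, and the DTEC value was 0.13 (adjusted p = 0.425). Its exons overlap those of LDLRAD2 on the other strand, and 5 of its 12 deposited values were whole. AGRN, agrin, ranged from 210.0 to 574 CPM over the 12 libraries, with replicate 1 the lowest in each of the 4 groups, and was called in no comparison. NID1 was at the floor in all groups. NID2 had 7, 7 and 8 counts in DTC, 0, 4 and 0 in untreated WT cells, and 0 or 1 in each of the other libraries.

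The small leucine-rich proteoglycans LUM, DCN and BGN, which bind collagen fibrils in connective tissue, did not pass the filter. LUM, lumican, had 6, 18 and 19 counts in DTC and 0 in the 9 other libraries. BGN, biglycan, had 8, 7 and 18 counts in DTC and at most 2 elsewhere. DCN, decorin, was at the floor in all 4 groups. Levels at or under the floor, which was 0.115 CPM at most, could not be told from 0.

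Of the 6 enzymes that cross-link or hydroxylate collagen, LOXL4 and P4HA2 were called higher in DTC and LOX and P4HA1 lower, a share in each direction near the 34.0% and 33.3% of all genes. In DTEC 4 were called higher and 1 lower, against 26.0% and 26.3%. LOX, lysyl oxidase, starts the cross-linking of collagen and elastin, and was at 19.3, 19.97 and 17.7 CPM in untreated WT cells, 8.45, 6.71 and 7.42 in DTC, 20.01, 26.7 and 26.9 in DTEC and 22.1, 24.3 and 22.6 in KO. DTC was the lowest group by a wide gap. LOX fell in DTC, with a log2 fold change of -1.34 (SE 0.13, adjusted p = 6.16e-07) and was above untreated WT in DTEC by 0.37 (SE 0.13, adjusted p = 0.0249). The DTEC call was lost when replicate 1 or 3 of untreated WT, or replicate 2 or 3 of DTEC, was left out, with adjusted p between 0.0517 and 0.108.

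P4HA1 and P4HA2 encode alternative catalytic subunits of the prolyl hydroxylase that stabilises the collagen helix. P4HA1 had 46.9, 42.1 and 45.5 CPM in untreated WT cells, 35.3, 25.2 and 28.4 in DTC, 65.7, 53.1 and 59.8 in DTEC and 43.9, 38.4 and 38.1 in KO, lowest in DTC and highest in DTEC. P4HA2 had 56, 49.9 and 51.1 CPM in untreated WT cells, 122, 80.1 and 92.7 in DTC, 27.3, 29.2 and 33.4 in DTEC and 55.4, 55 and 55.5 in KO, highest in DTC and lowest in DTEC. In DTC the log2 fold change was -0.60 (SE 0.13, adjusted p = 0.000788) for P4HA1 and 0.91 (SE 0.13, adjusted p = 3.40e-05) for P4HA2. In DTEC it was 0.41 (SE 0.13, adjusted p = 0.0134) for P4HA1 and -0.80 (SE 0.14, adjusted p = 0.000203) for P4HA2. With total counts as the only scaling the DTC value of P4HA1 was -0.24 (adjusted p = 0.0991), and its DTEC call was lost without untreated WT replicate 2 or DTEC replicate 1. None of the 12 deposited values of P4HA2 was whole and an antisense gene, P4HA2-AS1, overlaps it, so its level is less certain.

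PLOD2, a lysyl hydroxylase of collagen, had 35.5 CPM in untreated WT and 47.1 in DTEC, where it was called at 0.41 (SE 0.13, adjusted p = 0.0174). That call was lost without untreated WT replicate 2 or DTEC replicate 1. LOXL4, a lysyl oxidase relative, rose from 0.203 CPM to 2.11 in DTC and 0.881 in DTEC, by 3.34 (SE 0.53, adjusted p = 5.84e-05) and 2.09 (SE 0.54, adjusted p = 0.00484). LOXL2 was at 61.6 to 92.9 CPM in all libraries and was called in no comparison.

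Genes of the same pathway outside the set were counted from lists of related genes. Those that passed the filter only through DTC were not told apart, and the filter favours higher DTC calls in such genes. Of 24 other collagen and laminin genes, 8 were tested, and 7 were called higher and 0 lower in DTC, against 34.0% and 33.3% of all genes. COL15A1, a basement membrane zone collagen, was at 1.64 ± 0.346 CPM in untreated WT (SD, n = 3) and 12.2 ± 1.46 in DTC, and at 1.47 ± 0.583 in DTEC. In DTEC, 4 of the 8 were higher and 1 lower than in untreated WT. Of 30 other matrix glycoproteins, 20 were tested, with 15 higher and 2 lower in DTC and 9 higher and 3 lower in DTEC, where 26.0% and 26.3% of all genes were called. MFAP5 was at 0.455 ± 0.0989 CPM in untreated WT and 20.5 ± 1.85 in DTC, and ECM1 at 1.87 ± 0.116 and 14.6 ± 1.83. THBS3, another thrombospondin, was at 5.76 ± 0.264 CPM in untreated WT and 25.6 ± 1.004 in DTEC, and MGP, matrix Gla protein, at 18.1 ± 3.16 and 74.9 ± 9.31.

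Of 25 genes for collagen folding and processing, 23 were tested. In DTC 8 were called higher and 9 lower, and in DTEC 6 higher and 7 lower, which were shares near the background. ADAMTS14, a procollagen N-proteinase, was at 0.764 ± 0.139 CPM in untreated WT and 12.1 ± 2.29 in DTC, while PCOLCE2, a procollagen proteinase enhancer, was at 15.9 ± 1.203 and 2.67 ± 0.653. LOXL3 fell in DTEC from 11.7 ± 0.662 to 3.25 ± 0.301 CPM, and PLOD3 from 77.03 ± 5.6 to 42.5 ± 4.12. TGM2, a transglutaminase that cross-links fibronectin, was at 298 ± 61.3 CPM in DTC and 1221 ± 80.1 in DTEC.

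Of 22 matrix receptor genes, 19 were tested, with 9 higher and 7 lower in DTC and 7 higher and 5 lower in DTEC. All tested genes had 34.0% and 33.3% in DTC and 26.0% and 26.3% in DTEC, so the lower calls of the receptors were near the background in both. ITGA6, an alpha chain of laminin-binding integrins, fell from 1255 ± 75.9 CPM in untreated WT to 129 ± 49.5 in DTC. ITGB3, whose integrin binds vitronectin and fibronectin, rose from 6.15 ± 0.578 CPM to 50.3 ± 11.03 in DTC and 38.7 ± 19.4 in DTEC. SDC1 fell in DTEC from 387 ± 41.1 to 87.1 ± 5.17 CPM, and ITGAV was at 364 ± 70.3 in DTC and 84.8 ± 14.3 in DTEC.

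Several collagen enzymes are targets of the hypoxia-inducible factors, so 12 other such targets were counted, and all were tested. In DTC 3 were higher and 6 lower, and in DTEC 5 higher and 4 lower, which is 25% and 50% of them in DTC, against 34.0% and 33.3% of all genes, and 41.7% and 33.3% in DTEC, against 26.0% and 26.3%. EGLN3 rose in DTC from 20.9 ± 0.634 to 109.6 ± 8.08 CPM and VEGFA fell from 173 ± 7.23 to 53.8 ± 6.56. NDRG1 rose in DTEC from 78 ± 3.88 to 227 ± 38.7 CPM and PGK1 fell from 959 ± 35.4 to 568 ± 44.5. From DTC to DTEC the counts of higher and lower calls were 0 and 4 of 8 for other collagens and laminins, 3 and 11 of 20 for other glycoproteins, 7 and 10 of 23 for folding genes, 5 and 8 of 19 for receptors and 6 and 3 of 12 for hypoxia targets. Over all tested genes the shares were 28.8% and 26.6%, near which lay the higher calls of folding genes and receptors and the lower calls of hypoxia targets.

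In KO the 6 genes called higher were COL1A1, COL5A1, LAMB2, VTN, FBLN1 and EFEMP1. VTN and COL5A1 passed a fold of 2, at 6.03-fold and 2.49-fold, and the others were 1.33-fold to 1.66-fold higher. Their values in DTC and DTEC, which are compared with the same untreated WT libraries, stand above. The KO count depends on the fit: it was 18 (14 higher and 4 lower) when only KO and untreated WT were fitted, where 2656 of 15183 genes were called. It was 14 (11 higher and 3 lower) without DTC replicate 1, which belongs to neither group compared, and 14 (12 and 2) with no count filter. DESeq2 called 8 higher and 1 lower. Of all tested genes 8.64% were called without DTC replicate 1, 3.65% with no count filter and 6.71% by DESeq2. Outside the set, KO called 1 of 8 other collagens and laminins, 2 of 20 glycoproteins (THBS3 among them, 8.66 ± 0.543 CPM), 2 of 23 folding genes (P3H2 and BMP1), 1 of 19 receptors (ITGB8) and 0 of 12 hypoxia targets, each of the 6 higher, where 2.76% of all genes were called higher.

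DTC replicate 1 is given apart because FN1 differed there. Its FN1 level was 1.96 times the mean of DTC replicates 2 and 3, which puts FN1 at 138 times the untreated WT mean in replicate 1 and 70.5 times in replicates 2 and 3. The same library was above the other DTC libraries for LAMA3, at 2.06 times their mean, for FBN1 at 1.79, TNC at 1.75, COL12A1 at 1.69 and THBS1 at 1.51. It was level with them for VTN, at 0.963 times, and below them for AGRN at 0.559 and LAMA5 at 0.57. In 31 of the 46 tested genes (67.4%) it was the highest of the 3 DTC libraries, while over all tested genes this held for 41.9%.

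The deviation of DTC replicate 1 went with base composition, and so did those of libraries in other groups. Among the 34 tested genes whose longest transcript was under 60% GC, 30 were above the mean of replicates 2 and 3, with a median of 0.50 on the log2(CPM + 0.1) scale. Among the 12 genes at or above 60% GC, 5 were above it, with a median of -0.22. Across the 46 genes, which share these libraries, the correlation of deviation with GC content was -0.63, and across 16410 genes with a transcript it was -0.29. Across the same 16410 genes it was -0.32 for untreated WT replicate 1, -0.27 for DTEC replicate 1 and 0.36 for DTEC replicate 3. KO replicate 1 had -0.14, the same sign as replicate 1 of the other groups, and KO replicates 2 and 3 had 0.093 and 0.049. Untreated WT replicate 1 also ran low in GC-rich genes: 11 of the 12 were below the mean of replicates 2 and 3, with a median of -0.56. Of the 34 genes under 60% GC, 21 were below it, with a median of -0.0935. The part of base composition in the group differences was not tested. Without DTC replicate 1 the counts of called genes were 25 higher and 8 lower in DTC, as with it, and 9 higher and 24 lower in DTEC relative to DTC. Of all tested genes 70.0% and 60.3% were called without it in these comparisons, against 67.3% and 55.4% with it. With that library left out, FN1 was 6.18 in DTC and -2.98 in DTEC relative to DTC.

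**Figure D5:**
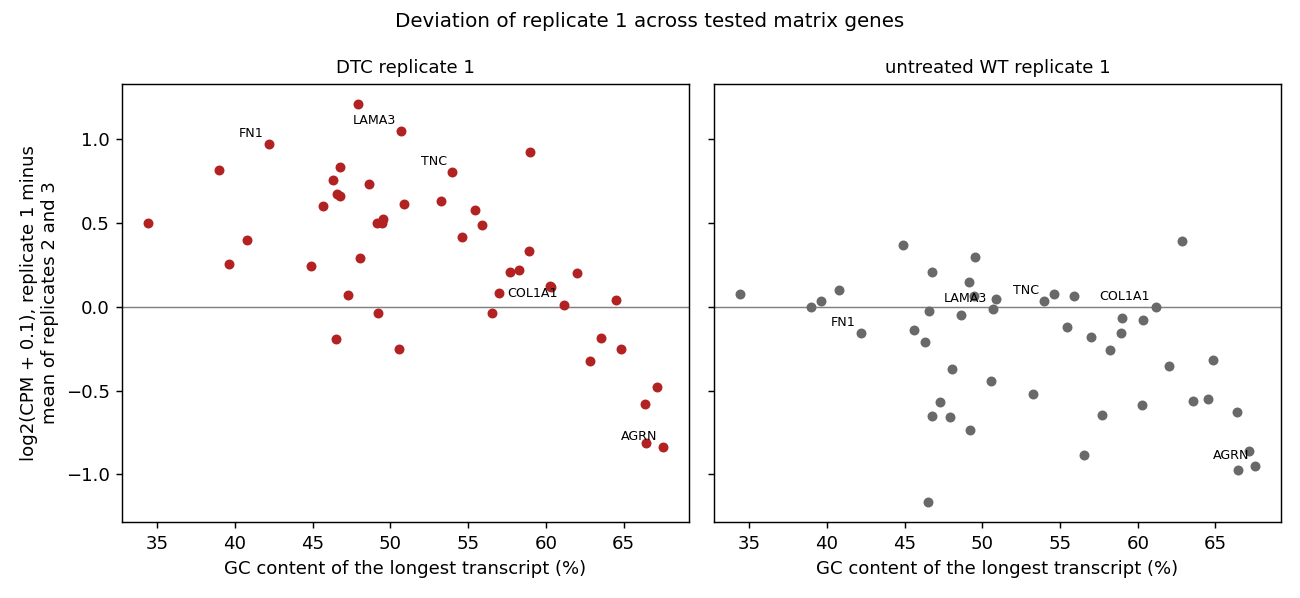
Deviation of replicate 1 from the mean of replicates 2 and 3, on the log2(CPM + 0.1) scale, against the GC content of the longest transcript, for the 46 tested genes in DTC (left) and untreated WT (right), 1 point per gene. In DTC most genes under 60% GC lie above 0, FN1 and LAMA3 among them, and AGRN is the lowest; in untreated WT the points at high GC lie mostly below 0.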

How the data were processed

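RNA from 12 PC9 libraries (3 untreated WT, 3 DTC, 3 DTEC, 3 KO) was analysed from 1 table of expected counts per gene deposited by the authors. The submitters' processing notes name RSEM 1.3.1, Bowtie2 2.5.2, DESeq2 1.40.2 and the build GRCh38, with no role or order. Per the labels' protocols, libraries were made with the TruSeq Stranded mRNA kit. The annotation release and strand setting are not given in the sources used here, so reads of overlapping antisense genes may not be separated.

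Counts were rounded and fitted in R 4.3.3 with edgeR 4.0.16: filterByExpr by group (17115 genes, at least 99.9% of counts in each library), TMM scaling, 1 mean per group over all 12 libraries, robust quasi-likelihood F tests, and Benjamini-Hochberg adjustment over all tested genes. The SE is the log2 fold change divided by the square root of F. The fit was tested on simulated data. Floors cover counting error only. The labels do not divide the libraries into batches, so no values within batches could be given. Symbols were found for 62700 of 62754 identifiers, and coordinates, exon lengths and GC contents are from GENCODE 29.

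Genes with at least 5 CPM in a group and a called change of 2-fold are given by library, and up to 2 genes per related list and comparison, those with the largest called change at 5 CPM or more, are named. A gene of the related lists is not reported here and was left out of their counts. The members and lists were chosen with earlier results of these data known. Alternatives were other scalings, no filter, DESeq2 1.42.0, the compared libraries alone, a replicate block, and leaving out each library.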

Additional observations from a re-analysis of the deposited data

Results flagged for a closer look

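In 7 genes the changes called at 7 and at 28 days of erlotinib had opposite signs, and the difference between DTEC and DTC was itself called by edgeR's quasi-likelihood test. The share of all tested genes that met this rule is not given here, so the count is not read as a trait of the set. The log2 difference of DTEC from DTC was -3.47 (SE 0.17, adjusted p = 1.41e-09) for COL4A6, -1.83 (SE 0.16, adjusted p = 3.43e-07) for COL7A1 and -2.35 (SE 0.17, adjusted p = 8.50e-08) for THBS1, which were above untreated WT in DTC and below it in DTEC in all libraries. It was -1.98 (SE 0.23, adjusted p = 1.21e-05) for LAMA3 and -1.71 (SE 0.14, adjusted p = 1.97e-07) for P4HA2, with the same order. The reverse order, below untreated WT in DTC and above it in DTEC, was seen for LOX at 1.71 (SE 0.13, adjusted p = 1.46e-07) and for P4HA1 at 1.01 (SE 0.13, adjusted p = 1.42e-05). Their levels in each library are given in the report, and of these calls the DTC rise of LAMA3, the DTC fall of P4HA1 and the DTEC rises of LOX and P4HA1 were lost under some alternatives. With 3 libraries in each group, no test of a single outlying library was made.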

How the results depend on the processing

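Over 4 comparisons, 101 calls of the set were recomputed under 19 alternatives, and 90 kept their direction and threshold in each of them. The other 11 were lost in at least 1 alternative, and none was reversed: 2 of 33 in DTC, 6 of 32 in DTEC, 1 of 30 between DTEC and DTC (LOXL4, without DTC replicate 1 or 3 or DTEC replicate 1) and 2 of 6 in KO. Under the alternatives that kept all the libraries of the groups compared, DTC had 32 to 40 called genes, DTEC 32 to 35, and DTEC against DTC 30 to 34, and with single libraries left out these ranges were 33 to 37, 28 to 34 and 30 to 34. The shares of all tested genes called were 39.0% to 68.8%, 28.7% to 59.0% and 31.0% to 56.9% in the former, lowest with no count filter. With single libraries left out they were 61.3% to 70.0%, 43.7% to 57.8% and 47.5% to 60.3%. The KO number moved most: 14 with no count filter, 18 with the compared libraries only, and 4 to 14 with single libraries left out, where 4 came without KO replicate 1 or 2 and 14 without DTC replicate 1. Over all genes KO called 738, and 1147 with no filter, 1149 with DESeq2, 2656 with the compared libraries only, 1520 without DTC replicate 1, and 321 to 426 without single libraries of KO or untreated WT. The cause was not tested. Replicate numbers were not taken as a pairing, since the correlations of same-numbered deviations ran from -0.030 to 0.179 and not all passed 0.1. Yet the deviation of replicate 1 correlated negatively with GC content in every group. Replicate 1 was also the lowest library of every group for AGRN, LAMA5, COL18A1 and COL6A2. The part of such a shared shift in the calls was not tested. Genes reported as not called are from the main fit, without a replicate block, which had 8 lower calls at 7 days and 12 at 28 days. With the replicate block the called genes were 25 higher and 10 lower in DTC, 20 and 15 in DTEC, 6 and 26 between them and 7 and 0 in KO, so 35, 35, 32 and 7 in all. Of all tested genes 68.8%, 54.1%, 56.9% and 5.18% were called with this block. Leaving out single libraries moved the fold (a ratio, not its log2) of COL4A3, LAMA2, SPARC, POSTN or FBN2 by over 1.5 times in at least 1 comparison, and these genes had few counts. Without DTEC replicate 3, COL4A3 was -3.75 in DTEC relative to DTC, and without DTEC replicate 2, POSTN was -7.93. Without untreated WT replicate 2, FBN2 was 7.27 in DTC.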

Other observations

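A few genes from the lists of vessel, muscle and leukocyte markers were expressed in at least some of these cultures of a carcinoma line. PECAM1, an endothelial adhesion molecule, had 35.2, 28.97 and 31.98 CPM in untreated WT cells, 9.77, 7.62 and 8.91 in DTC, 91.6, 89.6 and 95.03 in DTEC and 50.6, 46.5 and 48.1 in KO, with no overlap between the groups. CDH5, the cadherin of endothelial junctions, had 24.6 to 29.4 CPM in untreated WT and 33.2 to 37.99 in DTC, where it was not called. Its DTEC libraries had 26 to 49.6 CPM and overlapped untreated WT. VWF, von Willebrand factor, had at most 0.202 CPM in untreated WT and 1.15 to 1.85 in DTC, while ERG, an endothelial transcription factor, had 0 counts in all 12 libraries. CNN1, a calponin of smooth muscle, had 0 counts in untreated WT and 4.06, 5.83 and 6.27 CPM in DTC, and CSF1R, a receptor of macrophages, had 0.236 to 0.627 CPM in untreated WT and 7.74 to 10.7 in DTC, where CD3E was at the floor. These genes were taken from the marker lists after their values were seen. Other genes of the same lists were low in every library. The highest values were 0.938 CPM for KDR, 0.177 for TEK, 0.677 for ACTA2, 0.406 for MYH11, 0.795 for DES and 0.147 for PTPRC, all in DTC.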
